A study of Mus musculus with 15 samples.

Results

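The 9 genes Itga2b, Itgb3, Gp1bb, Gp5, Gp9, F2r, Selp, Vwf and Pf4 encode receptors, adhesion molecules and granule proteins of megakaryocytes and platelets. They were listed by symbol for that role, and all 9 were found among the 23337 gene symbols of the files. RNA of sorted mouse bone marrow progenitors was sequenced in 15 libraries, with no treatment. The groups were Trappc1 knockout (KO) granulocyte-monocyte progenitors (GMP, n = 3, numbered 1, 3 and 4), wild-type (WT) GMP (n = 4), KO common myeloid progenitors (CMP, n = 4) and WT CMP (n = 4). Both gates took cells negative for lineage markers and Sca1 and positive for CD117 and CD34, and they parted at high (GMP) or low (CMP) CD16/32. The Trappc1 protein belongs to TRAPP, a group of tethering complexes that act in vesicle traffic around the Golgi. The sources used here do not give which part of Trappc1 is deleted, in which cells, or the strain and age of the mice. Nor do they name the animal behind each library, and the spread behind each p-value is that between libraries, which may be technical.

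Megakaryocytes are large marrow cells that shed platelets into the blood. Their precursors part from the common myeloid route early, so a CMP gate holds cells with megakaryocyte potential and a GMP gate is committed mainly to granulocytes and monocytes. On platelets, the integrin αIIbβ3 binds fibrinogen, the GPIb-IX-V complex binds von Willebrand factor at sites of injury, and α-granules release stored proteins once the cell is activated.

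The integrin subunits lie on the same chromosome, Itga2b at chr11:102453297-102470122 on the minus strand and Itgb3 at chr11:104608000-104670476 on the plus strand (GRCm38, GENCODE M21). The GPIb-IX-V genes Gp1bb (chr16:18620317-18622403, minus strand), Gp5 (chr16:30307685-30310779, minus strand) and Gp9 (chr6:87778072-87779768, plus strand) are short, with 1, 2 and 2 exon blocks. F2r is at chr13:95601803-95618487 on the minus strand, Selp at chr1:164115264-164150026 on the plus strand, Vwf at chr6:125546774-125686679 on the plus strand and Pf4 at chr5:90772435-90773383 on the plus strand. Values were counted over whole genes, so they do not part exons, introns or UTRs. The Gp1bb transcript shares 1902 of its 2087 exonic bases with Sept5 and 867 with Gm49601, both protein-coding genes on the same strand, so the values of Gp1bb depend on how shared reads were assigned and are uncertain. Selp shares 186 and 438 of its 4413 exonic bases with the antisense genes Gm16587 and Gm16548, and the sources used here do not state whether counting used strand.

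Since most of the 9 genes were lower together in GMP than in CMP, their promoters were searched for binding motifs of the megakaryocyte regulator families GATA and ETS. RefSeq (GRCm38.p6) gave the 250 bases before and 50 after the start of 7 of the 9 genes, and Vwf and Itgb3 had no entry. The letters searched for GATA, on both strands, were AGATAA or TGATAA as well as AGATAG or TGATAG. For ETS they were AGGAAG or CGGAAG, also on both strands. A GATA motif was in 3 of the 7 windows (Pf4, Gp1bb and Gp5), against 29.8% of 32851 mouse promoters of the same length. An ETS motif was in 6 of the 7, all but F2r, against 46.5% of promoters. Both were in the 3 windows with a GATA motif, against 12.6% of promoters. A match describes the letters in these windows and is not a measured binding site. The windows of F2r, Gp5 and Pf4, genes with a steep step between CMP and GMP, and of Itga2b, with a shallow one, are given 5′ to 3′ on the gene's strand, with motif letters of either strand in capitals.
F2r, chr13:95618417-95618716, minus strand: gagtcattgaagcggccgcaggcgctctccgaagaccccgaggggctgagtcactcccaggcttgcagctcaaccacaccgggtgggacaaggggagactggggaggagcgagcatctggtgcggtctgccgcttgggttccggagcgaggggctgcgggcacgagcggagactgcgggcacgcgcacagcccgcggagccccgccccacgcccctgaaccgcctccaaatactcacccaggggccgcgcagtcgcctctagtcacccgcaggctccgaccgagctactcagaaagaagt
Gp5, chr16:30310732-30311031, minus strand: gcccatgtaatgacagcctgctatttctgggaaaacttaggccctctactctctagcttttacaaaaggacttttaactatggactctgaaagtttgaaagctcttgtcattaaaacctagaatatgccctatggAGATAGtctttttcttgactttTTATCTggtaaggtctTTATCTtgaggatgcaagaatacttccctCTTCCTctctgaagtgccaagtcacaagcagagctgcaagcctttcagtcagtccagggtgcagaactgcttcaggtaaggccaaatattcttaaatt
Pf4, chr5:90772185-90772484, plus strand: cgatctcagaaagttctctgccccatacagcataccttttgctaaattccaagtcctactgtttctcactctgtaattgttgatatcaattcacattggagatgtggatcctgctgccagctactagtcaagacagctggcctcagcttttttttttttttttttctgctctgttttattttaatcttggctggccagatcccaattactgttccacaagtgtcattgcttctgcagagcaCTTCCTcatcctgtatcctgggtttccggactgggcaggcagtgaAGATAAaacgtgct
Itga2b, chr11:102469834-102470133, minus strand: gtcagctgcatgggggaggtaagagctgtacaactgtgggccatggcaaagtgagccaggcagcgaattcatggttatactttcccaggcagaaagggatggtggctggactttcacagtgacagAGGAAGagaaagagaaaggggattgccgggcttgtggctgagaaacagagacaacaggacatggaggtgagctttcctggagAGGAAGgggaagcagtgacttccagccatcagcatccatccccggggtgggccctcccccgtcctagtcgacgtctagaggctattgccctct
The F2r window held neither motif and 68.7% G or C. The Gp5 window held GATA letters 115, 93 and 77 bases before the start and an ETS motif 48 bases before it, and the Pf4 window held an ETS motif 9 bases before the start and GATA letters 37 bases after it. The Itga2b window held 2 ETS motifs, 125 and 43 bases before the RefSeq start, and no GATA letters. This window ends at 102470133 and the GENCODE span of Itga2b at 102470122, so most of the window lies inside that span. Letters further before the GENCODE start of Itga2b were not searched. Genes with steep steps thus had windows with and without a GATA motif.

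Library totals ran from 61.3 to 120.3 M units, or about 15.3 to 30.1 M fragments at about 4 units per fragment. Levels are given as CPM, the counts scaled to an equal library total. Of the 23337 symbols 15181 passed the filter on low values, among them all 9 members, and the lowest member value in any library was 17 units, above a floor of 12 units (3 fragments). Trappc1 measured 6.12 CPM in library 1 and 24.04 and 24.96 CPM in libraries 3 and 4 of KO GMP, against 30.8 to 41.3 CPM in WT GMP, and 3.83 to 13.5 CPM in KO CMP against 18.6 to 26.5 CPM in WT CMP. KO GMP library 1 and KO CMP libraries 1 and 2 stood apart: they held the lowest Trappc1 levels of their groups, and Xist, the RNA of the inactive X chromosome, reached 124, 109 and 204 CPM in them, while no other library exceeded 2.18 CPM. The Y-linked Ddx3y was present in every library, at 57.9 to 102 CPM. For that reason the KO effects were also fitted without these 3 libraries, within library numbers 1 and 2, and within numbers 3 and 4. Among the sorting markers, Cd34 was at 212 to 550 CPM in KO GMP and 204 to 326 CPM in WT GMP, and at 707 to 743 CPM in KO CMP and 529 to 690 CPM in WT CMP. Kit, which encodes CD117, was at 285 to 421 CPM in KO GMP and 255 to 313 CPM in WT GMP, and at 333 to 417 CPM in KO CMP and 332 to 393 CPM in WT CMP. The 6 gate genes, Kit, Cd34, Ly6a, Fcgr3, Fcgr2b and Fcgr4, summed to 1213, 982 and 924 CPM in KO GMP libraries 1, 3 and 4. Their sum was 912 to 998 CPM in WT GMP, 1165 to 1229 CPM in KO CMP and 1054 to 1168 CPM in WT CMP. On the first principal component (61% of the variance) KO GMP library 1 was at -6.80. The other GMP libraries were at 47.7 to 54.4 there and CMP libraries at -61.3 to -14.9.

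All 9 genes were expressed in CMP, and their levels per kilobase of exon spread over more than an order of magnitude. In WT CMP (n = 4) Pf4, an α-granule chemokine, was highest at 77.5 ± 8.08 CPM per kb (mean ± SD), followed by Itga2b at 37.9 ± 6.36, F2r at 13.8 ± 1.45, Selp at 9.26 ± 2.11 and Gp9 at 9.21 ± 0.626. Itgb3 at 7.57 ± 0.633, Gp5 at 4.43 ± 0.514, Gp1bb at 3.65 ± 0.274 and Vwf at 3.54 ± 0.735 CPM per kb closed the order. Neighbours whose libraries overlapped in WT CMP were Selp with Gp9, Gp5 with Gp1bb, and Gp1bb with Vwf. In KO CMP the order of means was the same, with Pf4 at 112 ± 34.9 and Itga2b at 52.8 ± 10.6 CPM per kb at the top (n = 4). There only the pairs Pf4 with Itga2b, Itga2b with F2r, and Gp9 with Itgb3 did not overlap.

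In GMP the order changed at the top. Itga2b led in WT GMP at 14.9 ± 0.889 CPM per kb, with no overlap with Pf4 at 5.63 ± 2.38, followed by Selp at 4.10 ± 1.999, Itgb3 at 2.90 ± 0.439 and Gp9 at 2.43 ± 0.517 (n = 4). F2r at 0.754 ± 0.198, Gp1bb at 0.354 ± 0.263, Vwf at 0.263 ± 0.0468 and Gp5 at 0.247 ± 0.0782 CPM per kb were lowest. In KO GMP (n = 3) every neighbouring pair in the order overlapped, from Itga2b at 20.8 ± 15.4 to Gp1bb at 0.963 ± 1.04 CPM per kb, with library 1 far above libraries 3 and 4.

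The genes stepped down between the sorted populations. In WT, 8 of the 9 were lower in GMP than in CMP past an adjusted p of 0.05 (edgeR's quasi-likelihood test with Benjamini-Hochberg adjustment over all genes tested), against 14.2% of all genes tested. The log2 changes ran from -4.17 to -1.17 with a median of -3.36, beside a median of -0.02 over all genes. For all 9 genes every WT GMP library lay below every WT CMP library, as was so for 17.5% of all genes, with 13.9% the other way.

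The fibrinogen receptor genes had a shallow step. Itga2b, the αIIb subunit also known as CD41, had 86.2, 75.4, 79.2 and 84.1 CPM in WT GMP libraries 1 to 4, against 185, 170, 234 and 239 CPM in WT CMP. The change was -1.33 ± 0.30 (log2 ± SE; adjusted p = 0.00604), a 2.52-fold lower level in GMP. Itgb3, the β3 subunit, had 15.03, 15.1, 20.5 and 17.8 CPM in WT GMP, against 46.7, 47.3, 45.7 and 39.2 CPM in WT CMP (-1.37 ± 0.17, adjusted p = 0.000181). Itga2b therefore kept a substantial level in GMP, and the ratio of Itga2b to Itgb3 per kb was 4.18 to 6.20 in WT GMP and 3.89 to 6.60 in WT CMP, with overlap.

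The GPIb-IX-V genes did not step down equally. Gp5, the subunit that thrombin can cleave, had 0.346, 0.452, 0.697 and 0.675 CPM in WT GMP against 8.37, 11.0, 10.3 and 9.32 CPM in WT CMP. Its change was -4.13 ± 0.72 (adjusted p = 0.00131), a 17.5-fold lower level. Gp9, which is needed to bring the complex to the surface, had 1.90, 2.48, 2.56 and 1.62 CPM in WT GMP against 8.13, 7.52, 8.85 and 7.96 CPM in WT CMP, a change of -1.90 ± 0.31 (adjusted p = 0.000916). The ratio of Gp5 to Gp9 per kb was 0.0729 to 0.167 in WT GMP and 0.413 to 0.585 in WT CMP, so the pair did not keep a fixed ratio. Gp1bb, the GPIbβ chain, had 0.311, 1.37, 0.245 and 1.03 CPM in WT GMP against 7.26, 7.81, 7.08 and 8.34 CPM in WT CMP (-3.36 ± 0.64, adjusted p = 0.00231). Reads of Gp1bb can be shared with Sept5 and Gm49601. A row of the files whose symbol had been turned into a date and reads as Sept5 ran the other way, at 4.58 to 6.97 CPM in WT GMP and 0.786 to 4.93 CPM in WT CMP.

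F2r, the protease-activated thrombin receptor PAR1, had a steep step. In mouse platelets the thrombin response itself rests on the related receptors F2rl2 and F2rl3. F2r measured 2.18, 1.75, 3.12 and 3.01 CPM in WT GMP against 40.1, 45.0, 51.7 and 47.7 CPM in WT CMP, an 18.05-fold lower level (-4.17 ± 0.66, adjusted p = 0.000681).

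The granule genes Vwf and Pf4 also stepped down steeply, and Selp did not. Vwf, the multimeric adhesion protein of α-granules that is also made by endothelial cells, had 4.70, 4.93, 4.01 and 3.26 CPM in WT GMP against 63.3, 69.4, 51.9 and 42.9 CPM in WT CMP (-3.74 ± 0.62, adjusted p = 0.000944). Pf4 had 4.46, 6.06, 1.91 and 3.80 CPM in WT GMP against 56.7, 61.2, 47.6 and 58.0 CPM in WT CMP, 13.7-fold lower (-3.78 ± 0.61, adjusted p = 0.000815). Selp, the α-granule membrane protein P-selectin that binds leukocytes, had 27.7, 23.4, 10.5 and 10.7 CPM in WT GMP against 48.4, 49.2, 35.5 and 30.55 CPM in WT CMP. Its libraries did not overlap, but its change of -1.17 ± 0.62 did not pass (adjusted p = 0.190). Selp was higher in libraries 1 and 2 than in libraries 3 and 4 of both WT groups. The main fit did not pair libraries by number, as the labels do not say whether the numbers mark pairs. With the library number as a block, the Selp change was -1.35 ± 0.31 and passed (adjusted p = 0.00689). Over all 25 alternatives the adjusted p of Selp ran from 4.24e-07 to 0.343. Within numbers 1 and 2, 9 of the 9 genes were lower in WT GMP (14.0% of all genes lower, 11.0% higher), and within numbers 3 and 4 again 9 of 9 (19.3% lower, 19.2% higher).

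**Figure D1:**
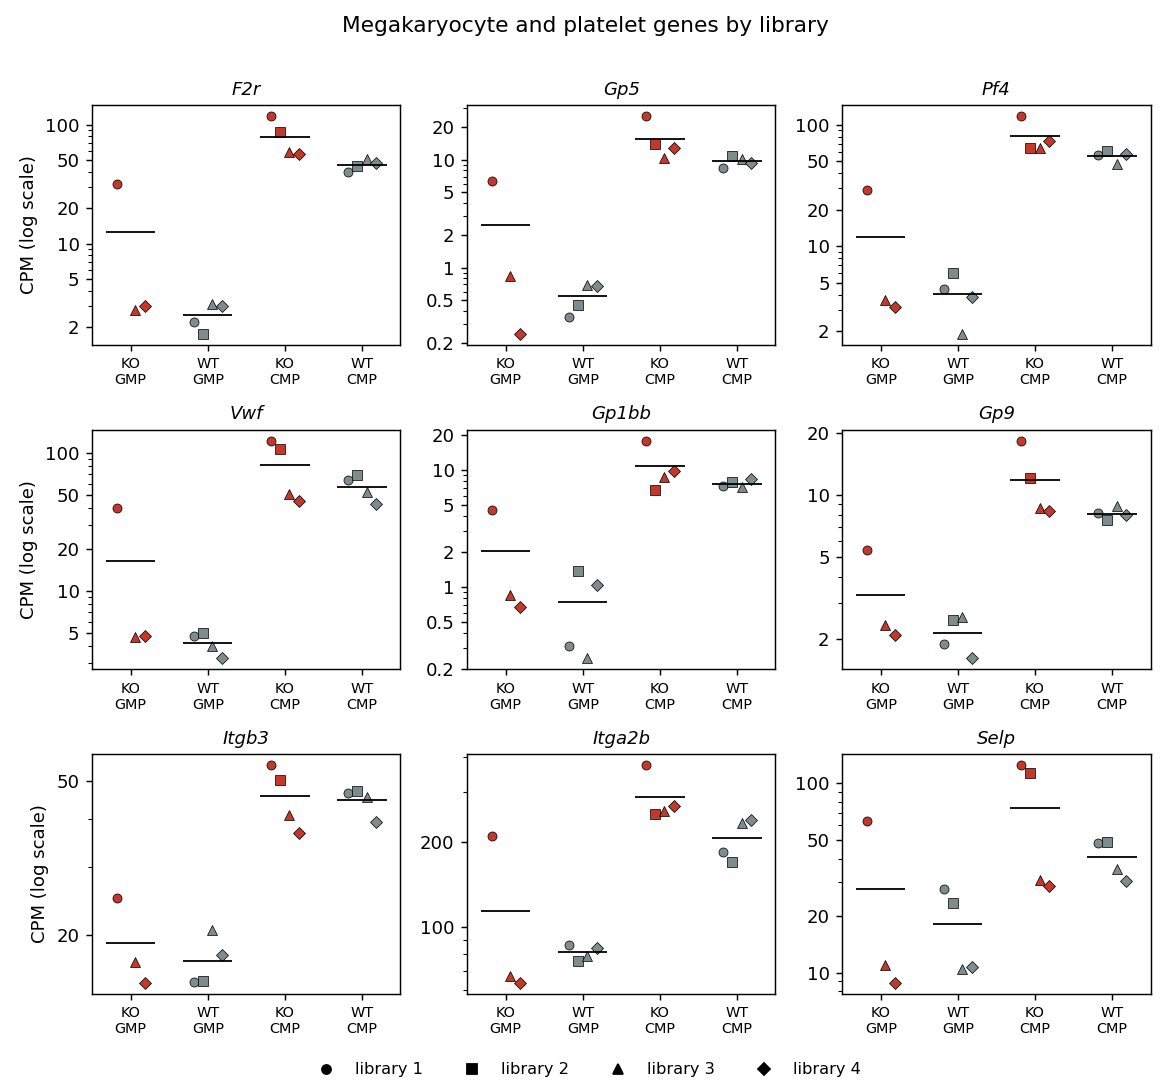
Level of each gene in each library in CPM on log axes (their ranges differ between panels), with KO in red and WT in grey, symbols for the library number and lines for group means. GMP lies below CMP in WT for every gene, and KO GMP library 1 lies above all other GMP libraries in every panel.

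In KO the same 8 genes were lower in GMP than in CMP, against 10.5% of all genes lower and 10.7% higher, and Selp again did not pass (-1.43 ± 0.69, adjusted p = 0.165). The changes were -2.31 ± 0.64 for Vwf, -2.75 ± 0.65 for Pf4, -2.68 ± 0.68 for F2r, -2.66 ± 0.74 for Gp5, -2.42 ± 0.68 for Gp1bb and -1.85 ± 0.35 for Gp9. Itga2b at -1.34 ± 0.33 and Itgb3 at -1.27 ± 0.19 were close to their WT values. For the same 8 genes no KO GMP library reached a KO CMP library (14.4% of all genes, with 13.4% the other way), and for Selp KO GMP library 1 at 63.3 CPM lay above KO CMP libraries 3 and 4 at 30.9 and 28.8 CPM. With the library number as a block Selp passed here too (-1.45 ± 0.35, adjusted p = 0.00999, within a range of 5.32e-07 to 0.445 over its alternatives). The means in KO GMP rest on 3 libraries that differ widely. Without KO GMP library 1 all 9 passed, with -4.10 for Vwf, -4.55 for Pf4, -4.77 for F2r, -4.81 for Gp5, -3.80 for Gp1bb, -2.14 for Itga2b and -2.90 for Selp. Without KO GMP library 3 only 4 of the 9 passed and without library 4 only 5, and in a fit of the KO libraries alone 2 passed, Itgb3 and Gp9. Within numbers 1 and 2, where KO GMP is library 1 alone, 8 of 9 were lower in GMP (6.96% of all genes lower, 8.42% higher), all but Gp1bb, and within numbers 3 and 4, 9 of 9 (19.1% lower, 17.9% higher).

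**Figure D2:**
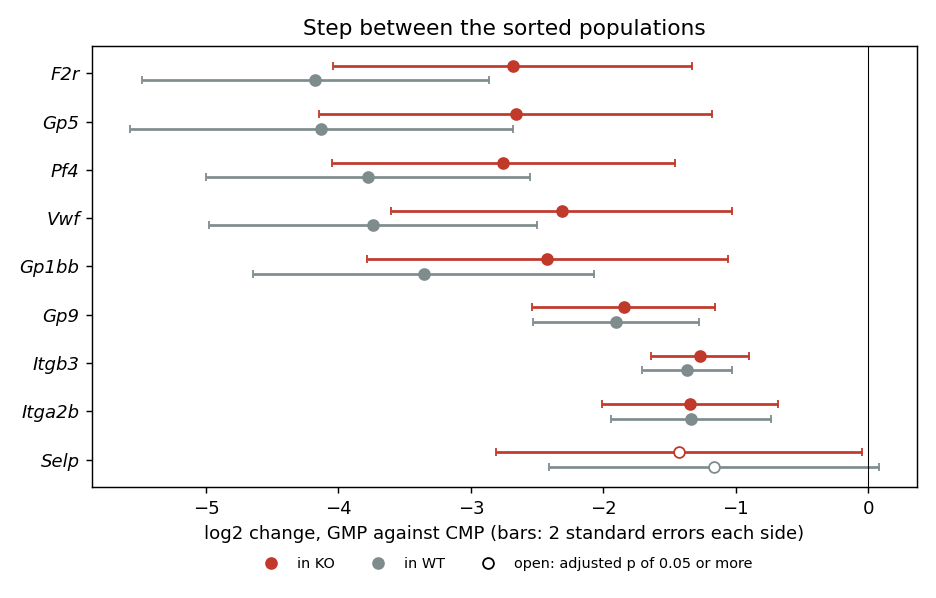
Log2 change of each gene between GMP and CMP in KO (red) and in WT (grey), with bars of 2 standard errors each side. All points lie below 0; F2r, Gp5, Pf4, Vwf and Gp1bb reach past -3 in WT, and the open symbols mark Selp, which did not pass.

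Between KO and WT none of the 9 genes passed in either population over all libraries. Trappc1 itself, the gene knocked out, did not pass either, at a log2 change of -1.36 in CMP and -0.95 in GMP. A gene that did not pass here is thus not shown to be unchanged. The Trappc1 change in GMP rested in part on KO GMP library 1, and without that library it was -0.530. Over the alternatives the Trappc1 change ran from -2.685 to -0.381 in GMP. In CMP it ran from -2.251 to -0.804 and passed under 2 of 25 alternatives. In CMP all 9 estimates were above 0, from 0.04 ± 0.17 for Itgb3 to 0.87 ± 0.62 for Selp, with a median of 0.53 beside 0.01 over all genes. The smallest adjusted p of a member was 0.522, and 0 of the 9 had an unadjusted p under 0.05; edgeR called 0% of all genes in each direction in this comparison, although 1761 had an unadjusted p under 0.05. DESeq2 called 133 genes higher and 227 lower, and 0 members, with no adjusted p for Pf4. KO CMP lay above WT CMP in every library for 3 members (3.06% of all genes), and below it for 0 (3.77% of all genes). Pf4 had 118, 65.0, 65.1 and 73.9 CPM in KO CMP libraries 1 to 4 against the 47.6 to 61.2 CPM of WT CMP. Itga2b had 374, 252, 258 and 269 CPM in KO CMP against at most 239 CPM in WT CMP. F2r had 117, 86.0, 58.3 and 56.1 CPM in KO CMP against at most 51.7 CPM in WT CMP. The estimates were 0.53 ± 0.54 for Pf4, 0.49 ± 0.30 for Itga2b and 0.80 ± 0.57 for F2r, and none of these 3 passed.

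The other 6 members overlapped between KO CMP and WT CMP. Vwf had 123, 107, 50.4 and 44.8 CPM in KO CMP libraries 1 to 4, and Selp had 124, 113, 30.9 and 28.8 CPM. For both, libraries 1 and 2 lay above all WT CMP libraries and libraries 3 and 4 lay within or below the WT CMP range. Gp9 had 18.2, 12.1, 8.63 and 8.33 CPM in KO CMP, Gp5 had 25.3, 14.1, 10.4 and 12.95 CPM, Gp1bb had 17.7, 6.79, 8.67 and 9.82 CPM, and Itgb3 had 55.0, 50.5, 40.8 and 36.6 CPM. KO CMP library 1 was highest of all 8 CMP libraries for Gp9, Gp5, Gp1bb and Itgb3. KO CMP libraries 1 and 2 both exceeded the other 6 CMP libraries for 6 members (Vwf, Itgb3, F2r, Selp, Gp5 and Gp9), as they did for 12.7% of all genes.

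The KO effect in CMP differed between the number sets for 3 of the 9 genes, all upward (3.05% of all genes upward, 4.59% downward). The split into sets was chosen after earlier results of these data showed them apart. The adjusted p-values below therefore describe a split already seen. The difference, numbers 1 and 2 minus numbers 3 and 4, was 1.44 ± 0.16 for Selp (adjusted p = 0.000145), 1.07 ± 0.18 for F2r (adjusted p = 0.00348) and 0.80 ± 0.16 for Vwf (adjusted p = 0.00941). Vwf did not pass without KO CMP library 4. Itga2b, at 0.68 ± 0.20, missed the threshold (adjusted p = 0.0623) and passed with other size factors, with no filter, with DESeq2 and with values divided by 4. Without KO CMP library 2 the count was 5 of 9, and without KO CMP library 4 it was 2 of 9. Within numbers 1 and 2, KO CMP exceeded WT CMP for 5 genes (8.23% of all genes higher, 10.2% lower): Selp by 1.30 ± 0.11, F2r by 1.27 ± 0.13, Gp9 by 0.97 ± 0.23, Itga2b by 0.84 ± 0.14 and Vwf by 0.81 ± 0.12. Within numbers 3 and 4 edgeR called 0 of the 9 (0.00659% of all genes higher), and the estimates ran from -0.14 to 0.40. Unadjusted p was under 0.05 for 0 members and for 1729 of the 15181 genes tested. Without the 3 libraries that held Xist, 0 of the 9 passed in CMP. The estimates for Vwf, Itgb3 and Selp were -0.26, -0.21 and -0.46, and those of the other members stayed above 0. That fit set KO CMP libraries 3 and 4 against WT CMP libraries 1 to 4, so differences between the WT number sets enter it. Within numbers 3 and 4 Vwf was at 0.01, Itgb3 at -0.13 and Selp at -0.14.

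In GMP the 9 KO estimates over all libraries were also above 0, from 0.14 ± 0.18 for Itgb3 to 2.28 ± 0.64 for F2r. EdgeR called 0% of all genes in each direction there, 5 members had an unadjusted p under 0.05 (Vwf, Pf4, F2r, Gp1bb and Gp5), and DESeq2 called 0 members. For 0 of the 9 did KO GMP and WT GMP libraries not overlap (3.62% of all genes in each direction). These estimates rest on KO GMP library 1. It exceeded the other 6 GMP libraries for all 9 genes, as it did for 32.2% of all genes. F2r had 31.4, 2.79 and 3.02 CPM in KO GMP libraries 1, 3 and 4, against 1.75 to 3.12 CPM in WT GMP. Vwf had 39.8, 4.68 and 4.76 CPM in KO GMP against 3.26 to 4.93 CPM in WT GMP, and Pf4 had 29.1, 3.63 and 3.20 CPM in KO GMP against 1.91 to 6.06 CPM in WT GMP. For these 3 genes libraries 3 and 4 were within the WT GMP range and library 1 was far above it. Gp5 had 6.37, 0.839 and 0.244 CPM in KO GMP, and its value in library 1 was 11.3 times the median of the other 6 GMP libraries. That multiple was 10.8 for F2r, 8.5003 for Vwf, 7.82 for Pf4, 5.91 for Gp1bb, 5.86 for Selp, 2.72 for Itga2b, 2.43 for Gp9 and 1.56 for Itgb3. The 5 genes with steps past -3 in WT had multiples of 5.91 or more, and Selp, with a shallow step, had 5.86. Itga2b at 211 CPM and Selp at 63.3 CPM in KO GMP library 1 also exceeded the lowest WT CMP library, at 170 CPM for Itga2b and 30.55 CPM for Selp, and the other 7 genes did not. The ratio of Gp5 to Gp9 per kb was 0.473 in KO GMP library 1, within the 0.413 to 0.585 of WT CMP, and 0.144 and 0.0464 in KO GMP libraries 3 and 4, where WT GMP held 0.0729 to 0.167.

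Without KO GMP library 1, 0 of the 9 passed and the estimates ran from -0.86 for Selp to 0.20 for F2r. That fit set KO GMP libraries 3 and 4 against WT GMP libraries 1 to 4, and within numbers 3 and 4 Selp was at -0.10. Within numbers 1 and 2, where library 1 is the only KO GMP library and is assumed to vary like the others, 9 of 9 were higher in KO (11.0% of all genes higher), from 0.71 ± 0.13 for Itgb3 to 4.00 ± 0.18 for F2r. Within numbers 3 and 4 edgeR called 0 of 9 (0.00659% of all genes in each direction). Unadjusted p was under 0.05 for 3 members and for 789 of the 15181 genes tested. The 3 were Vwf at 0.37 ± 0.13, Itga2b at -0.32 ± 0.14 and Itgb3 at -0.26 ± 0.11. Trappc1 itself was at 24.04 and 24.96 CPM in KO GMP libraries 3 and 4, against 30.8 and 33.05 CPM in WT GMP libraries 3 and 4. The tests within numbers 3 and 4 therefore cannot show the effect of a deeper loss of Trappc1 in GMP. The difference between the KO effects, CMP minus GMP, was called for 0 of the 9 by edgeR (0% of all genes). Unadjusted p was under 0.05 for 0 of the 9 and for 451 of the 15181 genes tested. DESeq2 called 0 of the 9, with no adjusted p for Pf4. It ran from -1.49 ± 0.85 for F2r to 0.26 ± 0.91 for Selp. Within numbers 1 and 2 it was called below 0 for Vwf, F2r and Gp5 (2.31% of all genes, with 0.356% above 0), at -2.23 ± 0.19, -2.72 ± 0.22 and -2.93 ± 0.60. In bulk libraries, fewer cells of a type and less RNA per cell cannot be told apart.

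**Figure D3:**
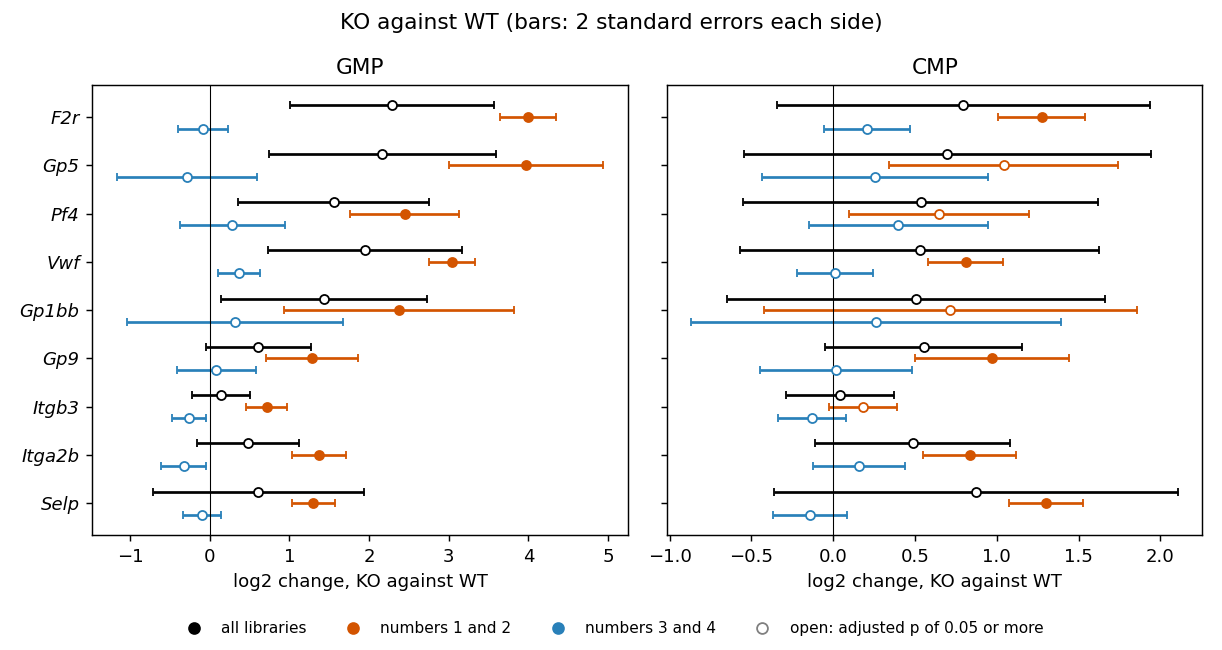
Log2 change of each gene between KO and WT in GMP (left) and CMP (right), over all libraries (black), within library numbers 1 and 2 (orange) and within numbers 3 and 4 (blue), with bars of 2 standard errors each side. Filled symbols passed an adjusted p of 0.05 and are found within numbers 1 and 2, for 9 genes in GMP and 5 in CMP; the blue points lie near 0.

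Other genes of the platelet programme were taken as lists. Of 14 genes of the platelet surface and adhesion 13 were tested, and 8 were lower and 0 higher in WT GMP than in WT CMP, with a median change of -1.68, beside 14.2% lower and 11.3% higher over all genes. The most abundant of these, Itgb1, Pecam1 and Cd9, were not among them, with changes of -0.02 ± 0.11, -0.18 ± 0.14 and -0.29 ± 0.14. Gp1ba, the partner of Gp1bb in the complex, was at 1.82 CPM in WT GMP and 5.38 CPM in WT CMP on average (-1.55 ± 0.37, adjusted p = 0.00832; chosen after its values were seen). In KO 7 of the 13 were lower and 0 higher (10.5% of all genes lower, 10.7% higher), and without KO GMP library 3 only 4 were lower.

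Of 18 platelet signalling genes 11 were lower and 1 higher in WT GMP (14.2% of all genes lower, 11.3% higher), with a median of -1.27. The higher gene was Rasgrp2, the exchange factor that activates the integrin switch Rap1, at 315 CPM in WT GMP and 220 CPM in WT CMP (0.53 ± 0.12, adjusted p = 0.00655). Fermt3, the integrin activator kindlin-3, was at 378 CPM in WT GMP and 374 CPM in WT CMP (0.03 ± 0.08). Plek, the protein kinase C substrate pleckstrin, was at 38.9 CPM in WT GMP and 163 CPM in WT CMP (-2.05 ± 0.27). In KO 9 of the 18 were lower (10.5% of all genes lower, 10.7% higher), and Rasgrp2 was the only one higher (0.68 ± 0.13). Without KO GMP library 3 only 4 were lower, and without library 4 only 5.

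Granule and secretion genes went both ways, with 6 of 18 lower and 4 higher in WT GMP and a median of 0.03. Over all genes 14.2% were lower and 11.3% higher in WT GMP, and 10.5% lower and 10.7% higher in KO GMP. The list genes higher in WT GMP were Srgn, the core protein of granule proteoglycans (1.06 ± 0.25), the lysosomal and dense granule membrane protein Cd63 (1.32 ± 0.25), coagulation factor F5 (1.04 ± 0.34) and the syntaxin Stx11 (0.79 ± 0.11). F5 did not pass without 1 of 7 libraries, among them each WT GMP library. F13a1, the clot crosslinking enzyme, was at 1165 CPM in WT GMP and 653 CPM in WT CMP (0.85 ± 0.34) and did not pass there, but it passed in KO at 675 CPM in KO GMP and 308 CPM in KO CMP (1.14 ± 0.36). In KO 5 of the 18 were higher and 4 lower (Mmrn1, Pdgfb, Rab27b and Slc35d3), and without KO GMP library 3 only 2 were lower. Several of these genes also serve granules of myeloid cells.

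Of 14 genes of the megakaryocyte cytoskeleton 2 were lower and 1 higher in WT GMP, with a median of -0.0025. These counts were near or below the shares of all genes, 14.2% lower and 11.3% higher. The number higher was 2 without KO CMP library 1, KO CMP library 2 or WT CMP library 1, and 3 without KO GMP library 1 or WT CMP library 2. Mast4, a kinase of the microtubule-associated family, was at 2.35 CPM in WT GMP and 12.7 CPM in WT CMP (-2.42 ± 0.41), the focal adhesion protein Zyx changed by -0.80 ± 0.16, and the tubulin Tuba4a was at 875 CPM in WT GMP and 448 CPM in WT CMP (0.98 ± 0.12). Tln1, Flna and Myh9, the most abundant, changed by 0.00 ± 0.12, 0.30 ± 0.11 and -0.01 ± 0.10 and did not pass, though Flna passed under 9 of 25 alternatives. In KO 4 of the 14 were lower (Mast4, Mylk, Pdlim1 and Zyx) and 3 higher (Actn1, Flna and Tuba4a), with 1 lower without KO GMP library 3 or library 4. Over all genes in KO 10.5% were lower and 10.7% higher. Of 16 megakaryocyte transcription factors 9 were lower and 1, Fli1, higher in WT GMP (0.32 ± 0.11, adjusted p = 0.0493, a call lost without any 1 of 11 libraries). Lmo2, a bridging factor of the GATA complex, changed by -0.72 ± 0.13, while Etv6 at -0.40 ± 0.14 and Lyl1 at 0.18 ± 0.12 did not pass. Gata1, the master regulator of megakaryocytes and erythroid cells, was at 7.46 CPM in WT GMP and 18.2 CPM in WT CMP (-1.27 ± 0.32) and its partner repressor Gfi1b at 3.14 CPM in WT GMP and 25.3 CPM in WT CMP (-3.00 ± 0.44; both chosen after their values were seen). In KO the same number, 9, was lower (6 to 13 with 1 library left out), and Mafg was higher (0.41 ± 0.13, adjusted p = 0.0445). That call was lost without any 1 of 7 libraries, among them KO GMP libraries 3 and 4, and 3 genes were higher without KO GMP library 1. Between KO and WT edgeR called 0 genes of each of the 5 lists in either population over all libraries.

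**Figure D4:**
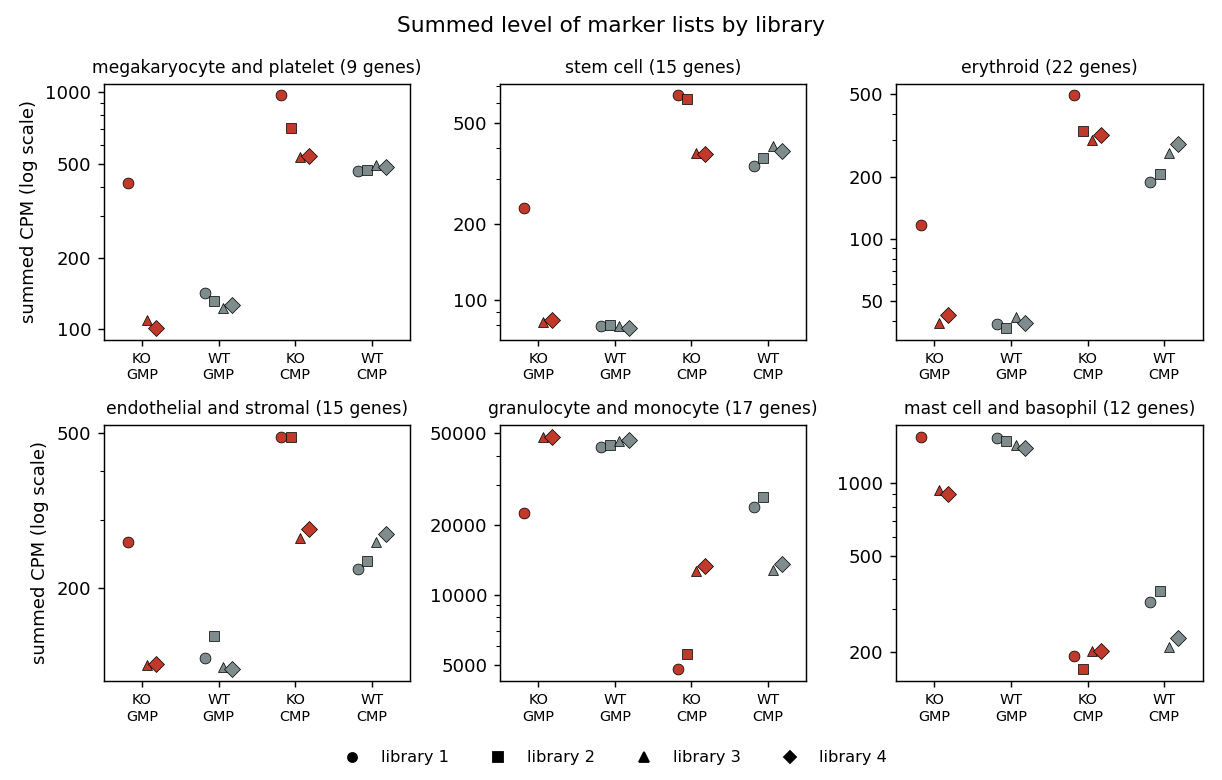
Summed level of each marker list in each library in CPM on log axes (their ranges differ between panels), with KO in red and WT in grey and symbols for the library number. KO GMP library 1 and KO CMP libraries 1 and 2 are highest of their populations for the 9 platelet genes and the stem cell list, and lowest for the granulocyte and monocyte list.

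Some marker lists of other cells moved with the 9 genes between libraries, and others did not. The summed level of the 9 genes was 416, 110 and 101 CPM in KO GMP libraries 1, 3 and 4 and 123 to 143 CPM in WT GMP, and 972, 707, 531 and 540 CPM in KO CMP libraries 1 to 4 and 464 to 492 CPM in WT CMP. The 15 stem cell genes summed to 232, 81.8 and 83.7 CPM in KO GMP and 77.9 to 80.1 CPM in WT GMP, and to 644, 624, 381 and 377 CPM in KO CMP and 340 to 407 CPM in WT CMP. Angpt1 and Hlf were the most abundant of them. The 22 erythroid genes found summed to 116, 39.1 and 42.6 CPM in KO GMP and 37.0 to 41.8 CPM in WT GMP, and to 495, 334, 301 and 319 CPM in KO CMP and 189 to 286 CPM in WT CMP, with Car2 and Aqp1 highest. The 17 granulocyte and monocyte genes, led by Mpo and Elane, ran the other way, at 22591 CPM in KO GMP library 1 against 43711 to 46677 CPM in WT GMP. In KO CMP libraries 1 to 4 they were at 4775, 5568, 12715 and 13362 CPM. In WT CMP libraries 1 to 4 they were at 23962, 26544, 12864 and 13658 CPM. WT CMP libraries 1 and 2 thus also differed from 3 and 4 for this list, and that difference enters comparisons within numbers 1 and 2. The 15 endothelial and stromal genes, led by Eng and Tie1, summed to 263 CPM in KO GMP library 1 and 124 to 151 CPM in WT GMP, and to 489 and 490 CPM in KO CMP libraries 1 and 2 and 225 to 276 CPM in WT CMP. The 12 mast cell and basophil genes, led by Prss34 and Hdc, summed to 1561, 933 and 901 CPM in KO GMP libraries 1, 3 and 4. Their sum was 1402 to 1534 CPM in WT GMP, so KO GMP libraries 3 and 4 lay below every WT GMP library. In CMP it was 170 to 203 CPM in KO and 210 to 359 CPM in WT. The 14 lymphoid genes found, led by Nkg7 and Cd79b, summed to 282 to 490 CPM in KO GMP and 403 to 473 CPM in WT GMP, and to 160 to 212 CPM in KO CMP and 160 to 295 CPM in WT CMP. KO GMP library 1 was the lowest GMP library for this list. A few genes made up much of some sums: over the 15 libraries Nkg7 averaged 260 CPM, Car2 124 CPM, Eng 87.6 CPM and Tie1 64.9 CPM. Of no list was a gene at 0 in all libraries. The part of these cells in the levels of the 9 genes was not tested.

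For each member the genes with the most similar profile were sought among 12020 genes with a mean of at least 1 CPM, by the root-mean-square difference of log2 CPM centred over the 15 libraries. The nearest was Sdpr for Vwf (0.23), Tbxa2r, the thromboxane receptor of platelets, for Pf4 (0.35), Rab37 for Itga2b (0.13), Zfp608 for Itgb3 (0.14), Pglyrp2 for F2r (0.31), Igfbp7 for Selp (0.28), Fam171a2 for Gp1bb (0.33), Slc14a1 for Gp5 (0.26) and Arhgef5 for Gp9 (0.17). Second came Shank3 for both Vwf and F2r, Mfsd2b for Pf4, Ndrg1 for Itga2b, Ppp1r9a for Itgb3, Tjp1 for Selp, Gfi1b for Gp1bb, Myct1 for Gp5 and Spns2 for Gp9. The same distance between a member and the median gene of the pool was 0.74 for Itgb3 to 2.11 for F2r. No member was among the 2 nearest genes of another member. All of these profiles share the 15 libraries, among them the 3 that stand apart.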

How the data were processed

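The deposited files hold estimated counts per gene symbol for each of 15 libraries, made with a SMARTER mRNA-Seq kit per the labels' protocols, and aligned with HISAT to mm10 per the submitters' processing notes, which give no versions here. The deposited values are whole numbers, but among those from 1 to 40 a share of 38% could be divided by 4, where an even spread gives 25%, and 1 fragment was taken as about 4 units. The sources used here do not state whether counting used strand, and 25 symbols had been turned into dates.

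The values were filtered (filterByExpr, 15181 genes left), scaled by TMM and fitted with edgeR 4.0.16 (R 4.3.3, limma 3.58.1), with 1 group term over all 4 groups. The quasi-likelihood test with Benjamini-Hochberg adjustment over all genes tested gave the calls at 0.05. The number set in CMP was tested in a fit with 8 groups. Alternatives were RLE factors, no filter, DESeq2 1.42.0, values divided by 4, only the groups compared, a replicate block, the number set as covariate, each number set, no Xist libraries, and each library left out. Plain library totals were used only to recompute mean CPM levels, and no fit used them. The fits were also run on simulated counts with known changes. Their spread was taken from the fit with 8 groups, and they held no difference between the number sets. They therefore cannot show how the fits with 4 groups behave under that difference.

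Same-numbered libraries deviated together in each of the 4 pairs of groups compared (KO with WT in each population, GMP with CMP in each genotype), with correlations of 0.199 to 0.516. For some libraries another number correlated better. The labels do not say whether the numbers pair the libraries, so the main fits left the number out and the replicate block was an alternative. No 2 libraries held identical values.

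The members and lists were chosen with earlier results of these data known. Genes named beside the members were the 3 most abundant of each pathway list, list genes that passed where 5 or fewer did, the 2 most abundant of each other list, and the 2 nearest profiles of each member. Gp1ba, Gata1, Gfi1b, Xist and Sept5 were chosen after their values were seen.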

Additional observations from a re-analysis of the deposited data

Results flagged for a closer look

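Of 27 combinations of a member and a group of 4 libraries, 2 held a library far from the others, and chance alone gives about 1 in 20 such groups. Both were KO CMP library 1. Pf4 was at 117.6 CPM there, against a next value of 73.9 CPM and a lowest of 65.0 CPM, with a gap of 0.832 of the range, just past Dixon's 95% critical value. Itga2b was at 373.9 CPM, against a next value of 269.1 CPM and a lowest of 251.9 CPM, with a gap of 0.860 of the range.

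The KO effect in CMP differed between library numbers 1 and 2 and numbers 3 and 4 for F2r (1.07 on the log2 scale), Selp (1.44) and Vwf (0.80). The difference itself was tested, on a split chosen after earlier results of these data showed the sets apart. KO CMP libraries 1 and 2 are the ones that held Xist, and the part of that in these differences was not tested.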

How the results depend on the processing

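Of 54 member changes in 6 comparisons 19 passed. Under the alternatives that gave an adjusted p, 0 of these changed sign and 12 kept the call in each. GMP against CMP had 25 such alternatives, or 24 for Pf4, and the number sets had 19. With the replicate block, 9 of 9 members were lower in GMP than in CMP in KO and 9 of 9 in WT, which added Selp; it changed no other member count. Where a cause is not shown by the alternative itself, the cause was not tested. KO against WT in CMP, members higher numbered 5 within numbers 1 and 2, where 1249 genes were higher and 1552 lower; DESeq2 gave 133 and 227, numbers 3 and 4 gave 1 higher, and leaving out the Xist libraries gave 1 lower. In GMP, 9 members, 1667 genes higher and 1366 lower passed within numbers 1 and 2; DESeq2 gave 48 and 12, the number set as covariate 4 and 1, and numbers 3 and 4 gave 1 and 1. For the difference of the KO effects, numbers 1 and 2 gave 54 genes above 0, 350 below and 3 members below, numbers 3 and 4 gave 1 and 1, DESeq2 gave 3 below and leaving out the Xist libraries 1 below. For GMP against CMP in KO, numbers 3 and 4 gave 2715 genes higher and 2905 lower, numbers 1 and 2 gave 1056 lower, and the KO libraries alone gave 1018 higher, 858 lower and 2 members lower. In WT, numbers 3 and 4 gave 2917 genes higher. DESeq2 gave 810 genes higher for the number sets in CMP.

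Estimates that changed sign were all uncalled over all libraries. In CMP, KO against WT, leaving out the Xist libraries gave -0.26 for Vwf, -0.21 for Itgb3 and -0.46 for Selp, and numbers 3 and 4 gave -0.13 for Itgb3 and -0.14 for Selp. In GMP, leaving them out gave -0.23 for Pf4, -0.31 for Itga2b, -0.10 for Itgb3 and -0.86 for Selp, and numbers 3 and 4 gave -0.32 for Itga2b, -0.26 for Itgb3, -0.082 for F2r, -0.10 for Selp and -0.29 for Gp5. For the difference of the KO effects, numbers 3 and 4 gave 0.11 for Pf4, 0.13 for Itgb3, 0.29 for F2r, -0.047 for Selp and 0.55 for Gp5. There, leaving out the Xist libraries gave 0.54 for Pf4, 0.10 for F2r, 0.21 for Gp1bb, 0.24 for Gp5 and 0.00043 for Gp9. Itga2b was at -0.0069 with no filter and -0.54 within numbers 1 and 2, and Selp at -0.0029 with the covariate. For GMP against CMP in WT, numbers 1 and 2 gave 0.050 for Pecam1, -0.041 for Fermt3 and -0.045 for Tln1, and numbers 3 and 4 gave 0.068 for Myh9. Tln1 was also at -0.0039 with RLE factors and with DESeq2, -0.012 with no filter, -0.00035 with values divided by 4, -0.011 with WT alone and -0.0096 without the Xist libraries.

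With 1 library left out, KO against WT in CMP gave 0 to 2 genes higher and 0 to 48 lower (48 and 2 without WT CMP library 4), and the difference of the KO effects 0 to 1 below. GMP against CMP in KO gave 969 to 2029 genes higher, 687 to 2361 lower and 4 to 9 members lower, lowest without KO GMP library 3 and highest without library 1; in WT, 950 to 2000 genes were higher. The number sets in CMP gave 2 to 5 members and 208 to 522 genes higher. Sign changes gave -0.059 to 0.13 for Itgb3 in CMP, and in GMP -0.23 to 2.03 for Pf4, -0.31 to 0.78 for Itga2b, -0.10 to 0.30 for Itgb3 and -0.86 to 1.05 for Selp. For the difference of the KO effects they gave -1.90 to 0.36 for Vwf, -1.50 to 0.77 for Pf4, -0.30 to 0.80 for Itga2b, -0.26 to 0.14 for Itgb3, -1.99 to 0.59 for F2r, -0.19 to 1.73 for Selp, -1.41 to 0.44 for Gp1bb, -2.03 to 0.69 for Gp5 and -0.35 to 0.49 for Gp9. For the number sets they gave -0.24 to 0.62 for Pf4 and -0.40 to 0.99 for Gp1bb, and for GMP against CMP in WT -0.082 to 0.064 for Itgb1, -0.023 to 0.076 for Fermt3, -0.087 to 0.062 for Tln1 and -0.092 to 0.043 for Myh9.

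Depth limits Gp5 and Gp1bb in GMP most, where the lowest value was 17 units, about 4 fragments; such values cover counting error only. The fit of only the groups compared was not run for the difference of the KO effects, which needs all 4 groups. DESeq2 gave no adjusted p for Pf4 in some comparisons.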
